A study of Rattus norvegicus with 8 samples.

Results

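Expression of the transcription factors that steer osteoblast differentiation was examined in rat osteoblast-like cells with and without low-level Er:YAG laser irradiation. The genes were Runx2, Sp7, Dlx3, Dlx5, Msx1, Msx2, Twist1 and Runx1. Every rat probe whose gene name on the array equals one of these 8 names was taken. This gave 9 probes on 18 spots, out of 45598 rat probes on 58717 spots. Runx1 had 2 probes, and each of the other genes had 1. Primary cells were released by serial enzymatic digestion of calvariae, freed of periosteum, from Wistar rats aged 3–5 days, and they were not sorted. Confluent dishes were either irradiated with no medium over the cells, at 3.3 J/cm2 for 60 s, or left non-irradiated at 0 J/cm2. Cells of both groups then received osteoinduction medium with ascorbic acid, β-glycerophosphate and dexamethasone, and RNA was taken at 6 h. Each group had 4 one-color arrays, numbered 1 to 4, and by the deposited file names both arrays of a number carry the same animal number. Whether a number stands for 1 rat or several is not given in the sources used here.

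Runx2 is the runt-domain factor that commits mesenchymal progenitors to the osteoblast lineage, and Sp7 (osterix) is a zinc finger factor needed after Runx2 for osteoblasts to mature. Dlx3 and Dlx5 are homeobox factors that bind regulatory regions of Runx2 and of bone matrix genes, whereas Msx1 and Msx2 are homeobox factors of the early skull bones that can repress such genes and keep progenitors dividing. Twist1 is a basic helix-loop-helix factor that restrains Runx2 in cranial sutures. Runx1 is the runt-domain factor best known from blood formation and is also present in skeletal progenitors and chondrocytes.

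The sequences on the array decide which part of each transcript was read. All 9 probes were 60 bases long, and no probe of another gene shared a run of 20 bases with any of them on either strand. The Sp7 probe is shown whole because one of its frames carries the codon spacing of a zinc finger. The Runx1 probes are shown because they read different places of the same gene. Runx2 and Dlx3 are shown because their signals differed most between the arrays of a pair. For these last 4 probes the final 30 bases are printed, 5′ to 3′.
Sp7 probe, bases 1 to 60, chr7:141109948-141110007 (rn4, minus strand): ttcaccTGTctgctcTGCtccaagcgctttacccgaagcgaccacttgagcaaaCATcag
Runx1 first probe, bases 31 to 60, chr11:32623591-32623650 (rn4, minus strand): tttagtaatgctgtgAATAAAagaaagatt
Runx1 second probe, bases 31 to 60, chr11:32620076-32620135 (rn4, minus strand): ttctctccacttgtttattttagatttaaa
Runx2 probe, bases 31 to 60, chr9:12025100-12025159 (rn4, plus strand): aaattgaattatttggcattttctcccctc
Dlx3 probe, bases 31 to 60, chr10:83807487-83807546 (rn4, plus strand): cttactggaccagtctttatatataatgtt

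Coordinates are those of the whole probe as the array files give them. Capitals in the Sp7 probe mark codons for cysteine, cysteine and histidine, spaced by 2 and 12 codons in an open frame as in a zinc finger, a spacing found in 65 (0.143%) of the 45598 rat probes. Capitals in the first Runx1 probe mark AATAAA, the hexamer of the polyadenylation signal, searched on the given strand only. It ends 9 bases before the end of the probe and was present in 4121 (9.04%) of the rat probes. No other member probe held it. The second Runx1 probe lies further in the 3′ direction. The first Runx1 probe and the Msx2 probe had a stop codon in all 3 forward frames, as had 18.2% of all rat probes. The remaining probes were at chr4:31778601-31778660 (Dlx5, minus strand), chr14:78260990-78261049 (Msx1, plus strand), chr17:17248562-17248621 (Msx2, plus strand) and chr6:52607474-52607533 (Twist1, plus strand), all in rn4. No exon annotation of that build was used here.

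All 9 probes were well above background on 8 of 8 arrays. The 8 arrays shared 1 slide. Columns 1 and 3 of it carried only non-irradiated samples and columns 2 and 4 only irradiated ones, so slide column and treatment cannot be told apart. Replicates 1 and 2 lay in row 1 and replicates 3 and 4 in row 2. A difference between these sets of replicates cannot be told apart from slide row. The median processed signal of the arrays was between 56.2 and 84.8, between 26543 and 30490 probes were well above background, and 0 spots were saturated. Of 7 osteoblast markers, 6 were well above background on all 8 arrays, among them Col1a1, Alpl, Bglap, Ibsp and Spp1. The exception was Phex, which was above background on 2 arrays. The macrophage and leukocyte, skeletal muscle and endothelial lists each had 5 of 7 genes above background on all arrays. Ptprc, the pan-leukocyte gene, was above background on 1 array and Myod1, the muscle regulator, on 4. In RNA from a whole dish, fewer cells of a type and less RNA per cell cannot be told apart.

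At 6 h after irradiation, none of the 8 genes was called as changed. In a limma fit blocked on replicate number, with p adjusted by Benjamini-Hochberg over all 26399 probes fitted, 0 of 9 member probes had an adjusted p below 0.1 (0% of all probes), and each member's adjusted p was 1.00. None had an unadjusted p below 0.05 (2.54% of all probes), none had the same sign in all 4 pairs (7.52% of all probes), and none had groups that did not overlap (0.576% of all probes). Exact two-sided sign-flip tests over the 4 pairs, which cannot go below p = 0.125, gave p between 0.25 and 1 for each probe. With the brighter Runx1 probe for that gene, the 8 genes had a median log2 fold change of 0.010, beside -0.0034 over all probes. Intervals were narrow for Twist1, Dlx5, Msx2 and Runx1 and wide for Runx2 and Dlx3. All values below are log2 of the processed signal after quantile normalization, differences are irradiated minus non-irradiated within a replicate number, and errors are standard errors of the fit (n = 4 pairs). Levels of different probes are not compared with each other.

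**Figure D1:**
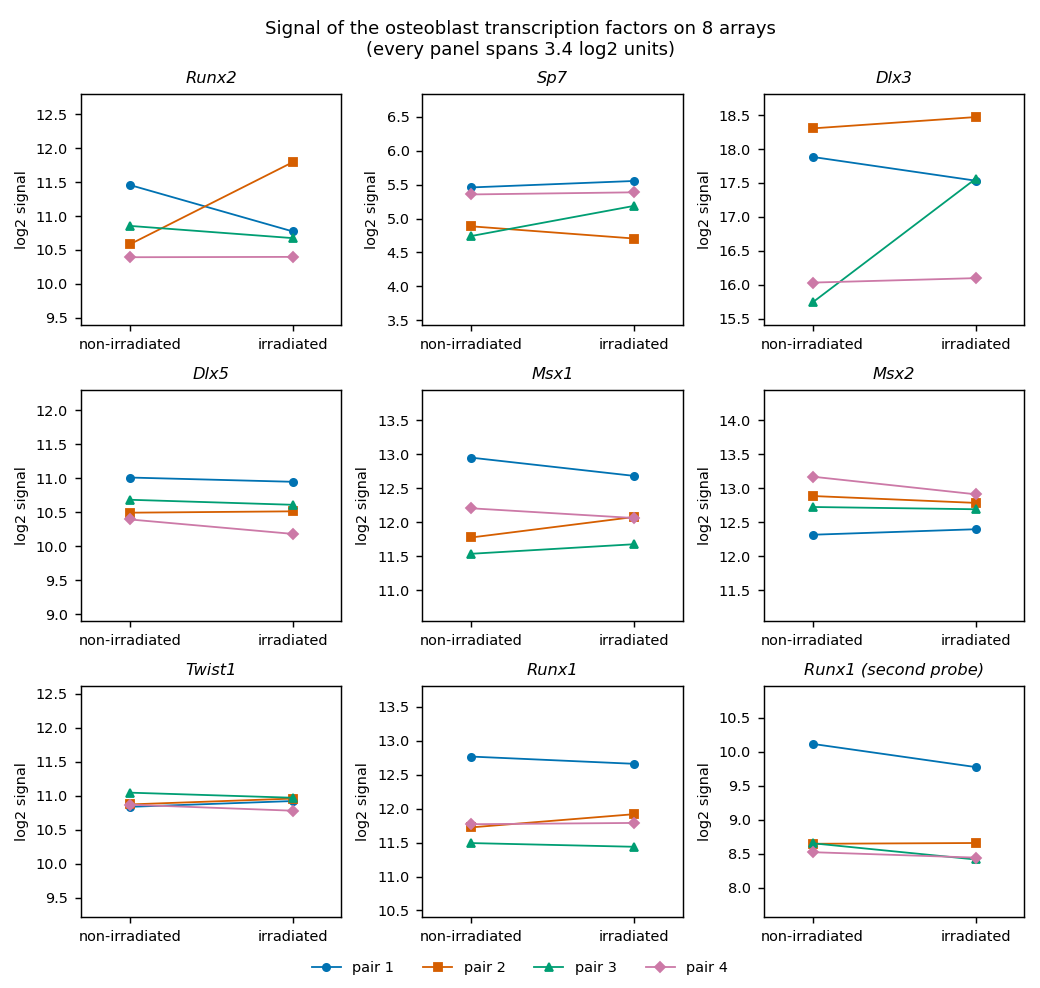
Log2 signal (vertical axis, each panel spanning 3.4 units) of the 9 probes on the non-irradiated and irradiated arrays (horizontal axis), with a line joining the arrays of each of the 4 pairs. Lines of Twist1, Dlx5 and the first Runx1 probe run nearly flat, whereas Runx2 rises by 1.21 in pair 2 and Dlx3 by 1.82 in pair 3. The second Runx1 probe falls by 0.34 in pair 1 and 0.24 in pair 3.

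Runx2, which commits progenitors to the osteoblast lineage, gave opposite differences in different pairs. Its signals on non-irradiated arrays 1 to 4 were 11.46, 10.58, 10.85 and 10.39, and on irradiated arrays 10.77, 11.79, 10.67 and 10.40. The highest value of all was on irradiated array 2 and the next on non-irradiated array 1, and the groups overlapped. The pair differences were therefore -0.68, 1.21, -0.18 and 0.0048. The log2 fold change was 0.088 ± 0.30, with a 95% interval from -0.65 to 0.83, that is from 0.637-fold to 1.77-fold. Without replicate 2 the value was -0.29, whereas without replicate 1, 3 or 4 it was 0.34, 0.18 or 0.12. Of the replicates left out in turn, only replicate 2 thus changed its sign.

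The same opposition of pairs 1 and 2 was present across the array. Over 26250 probes, the differences of these pairs correlated at r = -0.58, while the other combinations of pairs lay between -0.0070 and 0.088 (across probes, which are not independent). There were 1115 probes (4.25%) that, like Runx2, were lower by more than 0.5 in pair 1 and higher by more than 0.5 in pair 2, and 1776 that moved the other way. The mean signal of 198 probes of ribosomal protein genes was lowest on the arrays where Runx2 was highest, at 16.46 on non-irradiated array 1 and 16.45 on irradiated array 2, and lay between 16.57 and 16.74 on the others. With that mean as a covariate beside the block, the log2 fold change of Runx2 was -0.038. The part of this array-wide difference in the Runx2 values was not tested further.

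**Figure D2:**
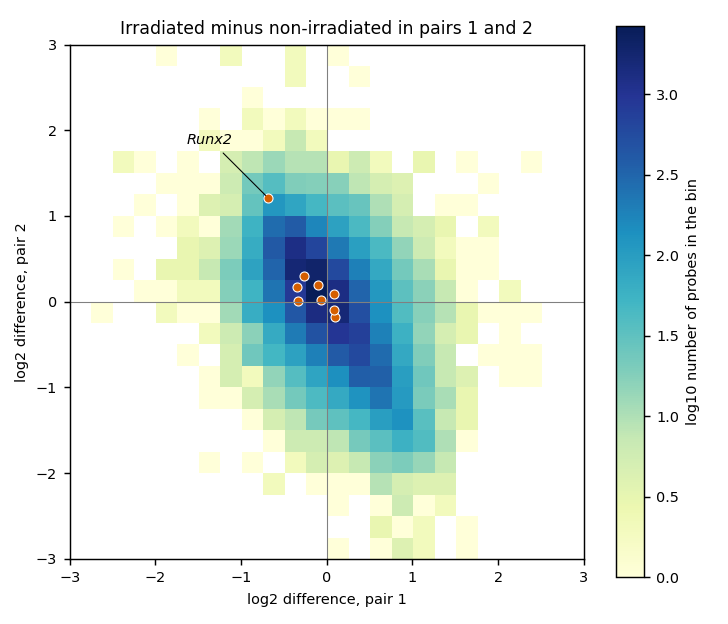
Log2 difference, irradiated minus non-irradiated, in pair 1 (horizontal axis) and pair 2 (vertical axis) for 26250 probes, counted in bins of 0.25 and colored by log10 of the count, with the 9 member probes as orange points and differences beyond 3 gathered in the outer bins. The cloud slopes downward (r = -0.58), and Runx2 lies at its upper left with -0.68 and 1.21 while the other 8 member probes lie near the centre.

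Sp7, which acts after Runx2, had the signals closest to background. Its processed signal was 25.8 to 59.7 scanner units, 2.0 to 4.0 times that of the dimmest rat spot above background on the same array, so small differences are less certain than for the other genes. Its log2 signals were 5.46, 4.89, 4.74 and 5.35 on the non-irradiated arrays and 5.55, 4.71, 5.19 and 5.39 on the irradiated arrays. Both arrays of replicates 1 and 4 were above both arrays of replicate 2. The log2 fold change was 0.098 ± 0.14, with an interval from -0.24 to 0.44. The value was higher in 3 of 4 pairs, and without replicate 3 it was -0.018.

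Dlx3, a homeobox activator of osteoblast genes, had the widest range of the 8 genes, 2.73 log2 units over the arrays. Its signals were 17.88, 18.30, 15.74 and 16.03 without irradiation and 17.53, 18.47, 17.56 and 16.10 with it. The pair differences were -0.35, 0.17, 1.82 and 0.066. Replicate 3 alone moved far, from the lowest of all values to one close to those of replicate 1. The log2 fold change of 0.43 ± 0.35 had an interval from -0.44 to 1.29, or 0.738-fold to 2.44-fold, and an unadjusted p of 0.274 in the limma fit. Without replicate 3 it was -0.039. With a single spot and a single probe, the value on non-irradiated array 3 has no second reading on the array.

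Dlx5, the related factor that lies upstream of Runx2 and Sp7 in bone, differed little within pairs. It read 11.01, 10.49, 10.68 and 10.39 without irradiation and 10.95, 10.51, 10.61 and 10.18 with it. It was lower in 3 of 4 pairs, by at most 0.21, and the groups overlapped. The log2 fold change was -0.082 ± 0.11, with an interval from -0.35 to 0.19, that is from 0.784-fold to 1.14-fold.

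Msx1 and Msx2, the homeobox factors of dividing skull progenitors, also showed no called difference. Msx1 read 12.95, 11.77, 11.53 and 12.20 on the non-irradiated and 12.68, 12.08, 11.67 and 12.06 on the irradiated arrays, highest on both arrays of replicate 1. It was higher in 2 pairs and lower in 2, and its log2 fold change was 0.0076 ± 0.14, with an interval from -0.33 to 0.35. Msx2 read 12.32, 12.89, 12.73 and 13.17 on the non-irradiated and 12.40, 12.79, 12.69 and 12.91 on the irradiated arrays, with both arrays of replicate 1 lowest. It was lower in 3 of 4 pairs, and its log2 fold change was -0.078 ± 0.12, with an interval from -0.36 to 0.21. The ordering of replicate 1 was thus opposite for these related genes.

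Twist1, the restraint on Runx2, was the steadiest of the genes. All 8 of its signals lay within 0.27 log2 units, at 10.84, 10.87, 11.05 and 10.87 without irradiation and 10.92, 10.96, 10.97 and 10.78 with it. The log2 fold change was 0.0020 ± 0.11, and its interval from -0.27 to 0.27 leaves out changes beyond 0.831-fold and 1.21-fold. Its spread between replicates, an SD of 0.077 over the means of the 4 replicate numbers, was below the median of 0.25 over all probes.

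Runx1 was the only member read at 2 places, and both probes gave small differences. The first probe, printed on 10 spots, read 12.77, 11.72, 11.49 and 11.77 on the non-irradiated and 12.66, 11.92, 11.44 and 11.79 on the irradiated arrays. Its spots within an array had an SD between 0.025 and 0.12, from 7 spots on non-irradiated array 1, where 3 were outlying, 9 on irradiated array 1 and 10 on the others. The log2 fold change was 0.013 ± 0.11, with an interval from -0.27 to 0.29, and the pairs split 2 and 2.

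The second Runx1 probe, on 1 spot, read 10.12, 8.64, 8.65 and 8.52 without irradiation and 9.77, 8.66, 8.41 and 8.44 with it. It was lower in 3 of 4 pairs, by up to 0.34, and its log2 fold change was -0.16 ± 0.12, with an interval from -0.45 to 0.13. The signs of the probes differed, the intervals overlapped, and neither excluded 0. The pair differences of the probes were -0.11 and -0.34 in pair 1, 0.19 and 0.011 in pair 2, -0.055 and -0.24 in pair 3, and 0.019 and -0.080 in pair 4, so the second probe gave the lower difference in each of the 4 pairs. Across the arrays, both probes were highest on the 2 arrays of replicate 1.

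**Figure D3:**
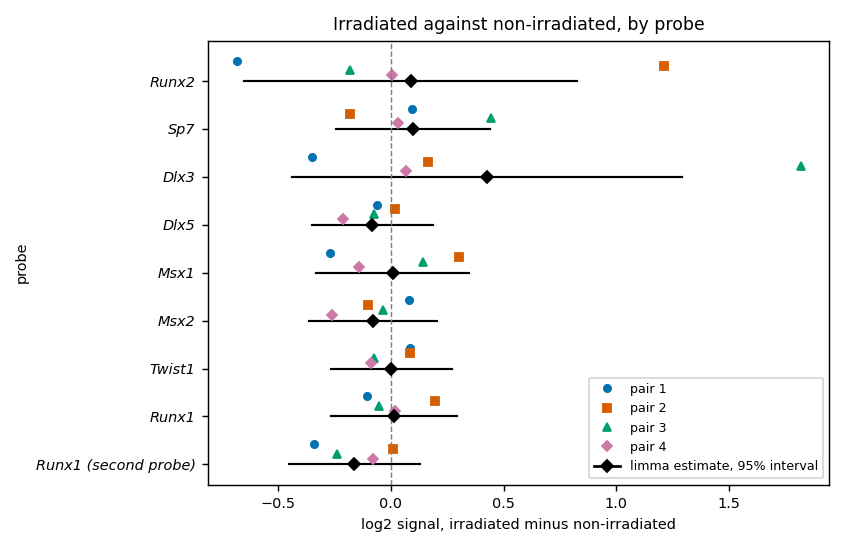
Difference in log2 signal, irradiated minus non-irradiated (horizontal axis), for the 9 probes (rows), with the limma estimate as a black diamond, its 95% interval as a line, and each of the 4 pairs as a colored point above it. Every interval crosses 0, and the estimates lie between -0.16 for the second Runx1 probe and 0.43 for Dlx3.

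For each member probe, more of the sum of squares lay between replicate numbers than between the groups. With 4 replicate numbers and 2 groups, the first share has more degrees of freedom and would be larger by chance too. The share of the sum of squares over the 8 arrays that lay between replicate numbers was 98.5% and 97.0% for the Runx1 probes, 94.8% for Dlx5, 93.9% for Msx1, 92.1% for Msx2, 84.8% for Sp7, 79.0% for Dlx3, 71.8% for Twist1 and 44.7% for Runx2, beside a median of 66.6% over all probes. The share between irradiated and non-irradiated arrays was highest for Dlx3, at 4.39%, beside a median of 2.21%. Only for Runx2 did most of the spread (54.4%) lie in neither. The moderated F-test of the next paragraph gave adjusted p = 0.480 for Runx2 and 0.780 for Twist1. Their shares therefore do not show a difference between replicates.

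A moderated F-test between replicate numbers, chosen after seeing the data, called 3 of 9 member probes at an adjusted p below 0.1, against 9.18% of 26373 probes. These were both Runx1 probes (adjusted p = 0.0443 and 0.0267 by limma) and Msx1 (adjusted p = 0.0744 by limma). Replicate 1 lay above the mean of the other replicates by 1.02 and 1.39 for the Runx1 probes and by 0.93 for Msx1. For Msx2 it lay below by 0.51 (adjusted p = 0.155). Without replicate 1, 0 member probes were called and 0.561% of all probes were. Without replicate 4 the count was also 0, with 1.26% of all probes called, without replicate 3 it was 2 (Dlx3 and the second Runx1 probe), with 1.79% of all probes called, and without replicate 2 it was 5, with 36.5% of all probes called. Scaling to the 75th percentile called 4 (12.9% of all probes), and with no filter on dim probes 1 was called, the second Runx1 probe (1.36% of all probes). Both arrays of a number are from cells of the same animal number, so these tests compare 4 cultures with 2 readings each.

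Replicate 1 also stood apart in its cartilage genes. Of 7 chondrocyte markers, 6 were tested and 5 were above background on all arrays. The mean log2 signal of those 5 was 9.11 and 8.99 on the arrays of replicate 1, and between 11.98 and 13.15 on the others. The collagen genes Col2a1 and Col9a1 were lowest there, Col2a1 at 9.84 and 10.23 against 14.68 to 15.88. The brightest probe of Sox9, the chondrocyte regulator, did not separate replicate 1 in this way, with 11.02 and 10.45 beside 10.67 to 11.87 on the others. Only 1 Sox9 probe did, with 7.84 and 8.19 beside 8.68 to 9.21. The remaining Sox9 probes did not, with 10.04 and 10.14 beside 9.84 to 10.41, and 6.04 and 6.26 beside 6.22 to 7.34. Replicate 4 had the lowest mean of 6 osteoblast markers, 9.62 and 9.44 against 10.18 to 10.68 elsewhere, with the brighter probe of Alpl, the bone alkaline phosphatase, at 8.39 and 8.63 against 10.11 to 10.90. Bglap (7.05 and 6.65 against 7.89 to 8.81) and Ibsp (4.86 and 4.47 against 5.65 to 6.52) were lowest there too. Spp1, at 14.70 and 14.61 against 14.23 to 14.86, and Col1a1, at 18.29 and 18.20 against 17.91 to 18.24, were not. The dimmer Alpl probe overlapped the other replicates, at 6.61 and 7.29 in replicate 4 against 7.06 to 8.25. The adipocyte list, of which only Pparg and Cfd were tested, was highest in replicate 1 (9.42 and 9.56) and lowest in replicate 4 (7.20 and 7.29). The mean of 5 macrophage and leukocyte markers was highest in replicate 1 as well, at 7.98 and 7.84 against 6.95 to 7.32. The macrophage lysozyme gene Lyz2 was at 8.17 and 7.50 there, against 4.82 to 6.24. The tested probes of Itgam and Aif1 were also highest in replicate 1. Cd14, at 9.29 and 10.00 against 9.32 to 10.25, and Cd68, at 7.40 and 7.30 against 6.68 to 7.64, were not. Ptprc was above background only on irradiated array 3. The osteoblast mean was highest in replicate 1 too, at 10.41 and 10.68 against 9.44 to 10.39. Endothelial means there were 8.69 and 8.50 against 7.55 to 8.61, and skeletal muscle means 6.65 and 6.42 against 5.98 to 6.52. Runx1 and Msx1 were thus highest in the replicate with the lowest chondrocyte mean and the highest osteoblast, adipocyte and macrophage means. The part of these other genes, or of the cell makeup, in the Runx1 and Msx1 values was not tested.

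**Figure D4:**
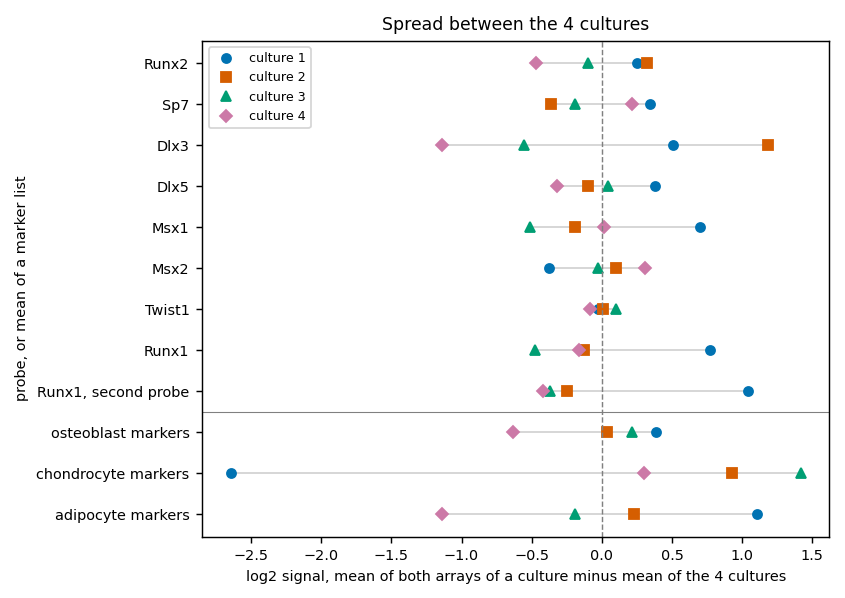
Mean log2 signal of both arrays of each replicate number (called culture in the legend) minus the mean of the 4 (horizontal axis), for the 9 member probes and for the mean of 3 marker lists (rows). Replicate 1 is the highest for Msx1 and both Runx1 probes, the lowest for Msx2 and, at -2.65, far the lowest for the chondrocyte markers. It is also the highest for Sp7, Dlx5 and the osteoblast and adipocyte markers.

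Other members of these families gave no call either. Of 10 relatives, 8 were on the array by name, without Sp3 and Dlx6, and 7 were tested. Msx3 was not well above background on any array. Of the 7, 3 were higher and 4 lower, with a median log2 fold change of -0.040 and 0 called. Dlx1, a homeobox gene next to Dlx2, was higher in 4 of 4 pairs by 0.064 to 0.70 (0.34 ± 0.15, unadjusted p = 0.0689 by limma). Its probe was above background on 7 of 8 arrays and so passed the filter through 1 group only. Its lowest signals, 3.94 and 3.84 on non-irradiated arrays 2 and 3, gave the larger differences, 0.70 and 0.52. The direction and p of Dlx1 are therefore not read as a change. Sp1, a ubiquitous relative of Sp7, gave 0.071 ± 0.20. Dlx2 gave -0.28 ± 0.21, with differences from -0.90 to 0.36, and Twist2, the close relative of Twist1, gave -0.090 ± 0.14. The probes of Dlx2 and Twist2 were likewise above background on 7 of 8 arrays, so the same limit holds for them.

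Partners and co-regulators of the 8 factors were all on the array, and 27 of 28 were tested. Of these, 12 were higher and 15 lower, with a median of -0.0043 and 0 called. Alx4, a homeobox gene of the skull vault, was higher in 4 of 4 pairs (0.19 ± 0.12), and Tle4, a Groucho-type co-repressor of Runx factors, was higher in 3 (0.13 ± 0.12). Smad4, the shared partner in BMP and TGF-β signaling, gave -0.27 ± 0.15. The brighter probe of the zinc finger gene Hivep3 was lower in 4 of 4 pairs (-0.19 ± 0.12), whereas its dimmer probe gave 0.095 ± 0.12. Dimmer probes of Tle4 (-0.49) and Smad5 (-0.42) had an unadjusted p below 0.05 in the limma fit, while the brightest probes of these genes gave 0.13 and 0.046. Probes of a gene therefore differed in sign for Tle4, Smad5 and Hivep3, among others, as they did for Runx1.

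Target genes of these factors in osteoblasts were tested for 18 of 20 names. Tnfsf11, the osteoclast factor RANKL, was not well above background on any array, and Phex did not pass the filter. Of the 18, 9 were higher and 9 lower, with a median of -0.013 and 0 called. Sost, the sclerostin gene of osteocytes, gave 0.22 ± 0.20 and Mepe, a matrix protein gene of osteocytes, 0.17 ± 0.21. Smpd3, a sphingomyelinase needed for mineralization, was lower in 4 of 4 pairs by 0.066 to 0.59 (-0.31 ± 0.13, unadjusted p = 0.0565 by limma). Pth1r, the parathyroid hormone receptor, gave -0.12 ± 0.12. Among the classical targets of Runx2 and Sp7, Bglap, which encodes osteocalcin, gave -0.046 ± 0.14, Alpl gave 0.10 ± 0.16, and Col1a1 gave -0.081 ± 0.11. The 6 lists of cell type markers likewise held 0 called genes, and none of their brightest probes had an unadjusted p below 0.05.

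Genes whose pattern over the 8 arrays was most like that of a member are given by Pearson's r, as a description over arrays that share animals and a slide. Only probes with an ordinary gene symbol were considered. Runx2 ran with Cyb5r4 (r = 0.996) and Acbd5 (r = 0.994), and 1174 of 26250 probes exceeded 0.9. Runx1 ran with Adam12 and F2r (r = 0.997 and 0.995), its second probe with Zfhx3 and Rap1b (r = 0.994 and 0.991), and Msx1 with Sertad4 and Adam19 (r = 0.997 and 0.992). Over 0.9 were 1003 probes for Runx1, 1016 for its second probe and 655 for Msx1. Dlx5 was most like Mboat2 and Cpz, Msx2 most like Fgd6 and Acat2, and Dlx3 most like Celf5 and Mmp15, with r between 0.969 and 0.992. Sp7 was most like Ptpn7 and Nfe2l3 (r = 0.974 and 0.966). Twist1 had the fewest, with 4 probes over 0.9, of which St6galnac6 reached 0.925 and Kiaa0408L 0.924.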

How the data were processed

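Cy3-labeled RNA from each of 8 samples was read on its own one-color array. The authors deposited spot intensities extracted with Agilent Feature Extraction 11.0.1.1 per the labels, background-subtracted and detrended within an array. They also deposited quantile normalized log2 values of 24029 rows, used here as an alternative. All 9 member probes are among those rows.

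Processed signals were log2 transformed and quantile normalized over the rat spots. Outlying spots were dropped and the spots of a probe averaged. A probe was tested if more than 50% of its spots were well above background on every array of at least 1 group (26404 probes, 26399 fitted). Groups were compared with limma 3.58.1 in R 4.3.3, replicate number as a block, two-sided, and called at an adjusted p below 0.1. The fit was tested on simulated data. The brightest probe stands for a gene. The number of arrays limits the precision. The limma p-values and intervals rest on the spread between these 4 pairs, moderated toward the spread of all probes fitted, and on no further cultures.

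The pairing comes from the animal numbers in the file names. Deviations from group means correlated within numbers 1 to 4 at 0.608, 0.0542, 0.571 and 0.749 across 26250 probes. Named are all members, in each list the 2 genes with the smallest unadjusted p in each direction, genes whose values bear on a member, and the 2 genes most like each member. A result for 1 gene of the partner list is not reported here. Genes and lists were chosen with earlier results of these data known. The F-test and the ribosomal covariate were added after seeing the data. Other settings tried were a 75th-percentile scaling, normexp with an offset of 50, other filters, outlying spots kept, the deposited values, no block or a random block, trend and robust estimation, probes averaged, and each replicate left out.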

Additional observations from a re-analysis of the deposited data

Results flagged for a closer look

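In the 18 groups of 4 values formed by the 9 probes and the 2 treatments, 2 held a sample whose gap to the nearest other exceeded Dixon's 95% limit, and chance alone gives about 1 in 20. The second Runx1 probe read 10.12 on non-irradiated array 1, against 8.52 to 8.65 on the other non-irradiated arrays. The irradiated array of that replicate was also the highest of its group, at 9.77. Twist1 read 11.05 on non-irradiated array 3, against 10.84 to 10.87 on the other non-irradiated arrays.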

How the results depend on the processing

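No member was called under any of the 15 other settings, and the smallest adjusted p of a member probe was 0.785, for the second Runx1 probe with the ribosomal covariate. With no replicate block the smallest adjusted p of all probes was 0.924, and with a random block 0.212, so neither way of handling the pairing gave a call. Dlx5, Msx2 and the second Runx1 probe kept their direction under every setting run for them. The others changed sign. With each replicate left out in turn, log2 fold changes ran from -0.29 to 0.34 for Runx2, -0.018 to 0.19 for Sp7, -0.039 to 0.68 for Dlx3, -0.091 to 0.10 for Msx1, -0.026 to 0.032 for Twist1 and -0.047 to 0.053 for Runx1. Scaling to the 75th percentile gave -0.0030 for Msx1, -0.0055 for Twist1 and -0.0040 for Runx1, normexp gave -0.0075 for Twist1, and the deposited values gave -0.0066 for Msx1 and -0.014 for Twist1. Averaging the probes of Runx1 gave -0.074. With the ribosomal covariate the values were -0.038 for Runx2, -0.032 for Msx1, -0.0011 for Twist1 and -0.0065 for Runx1. Where a sign changed, the cause was not tested.

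The number of member probes with the same sign in all pairs was 2 after scaling to the 75th percentile (6.75% of all probes with a value in all pairs), 1 after normexp (7.74%), and 0 to 3 with a replicate left out, when only 3 pairs remain and 13.4% to 28.0% of all probes have 1 sign. The number that differed between replicate numbers was 6 with normexp (13.7% of all probes), 1 with no filter (1.36%), 6 with the deposited values (15.3%), 5 with trend and robust estimation (12.9%), and 0 to 5 with a replicate left out (0.561% to 36.5%). The slide could not be fitted as a block, since all arrays lay on 1. Signal over background limits Sp7 most.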
